A study of Mus musculus and Homo sapiens with 34 samples.

Results

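The 10 genes described here belong to the ATF4 arm of the amino acid stress response, and were followed across all 34 RNA-seq libraries of a study of lung adenocarcinoma cultures. They were chosen by symbol: Adm2, Asns, Atf3, Atf5, Ddit3, Trib3, Chac1, Sesn2, Psat1 and Phgdh, in upper case in the human data. All 10 were listed in each of the 7 count tables, which list 16553 to 26245 genes, and all 10 passed the filter on low counts in every table.

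ATF4 is a transcription factor whose translation rises when amino acids run short, when unfolded protein accumulates in the endoplasmic reticulum, or when heme is lacking, because each of these leads to phosphorylation of the initiation factor eIF2 alpha. It then switches on genes for amino acid synthesis, uptake and tRNA charging, together with further transcription factors and feedback inhibitors. Growth factor signalling through mTORC1 is also known to sustain ATF4 and its amino acid synthesis targets. Transcript levels, as measured here, do not report the translation of ATF4.

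The alleles of the mouse cultures include p53frt and Rosa-FSF-CreERT2. Flp recombinase removes the former and turns on the latter, so that 4-hydroxytamoxifen (4OHT) can later activate Cre from the Rosa locus in every recombined cell. Organoids named 3154 also carry Hnf4aflox. Organoids named 1027B and the adherent line 3311 carry Foxa1flox and Foxa2flox, to which no 4OHT was added in these libraries. The 3154 organoids received 4OHT at 2 mM, as the labels give it, or ethanol for 2 days, with RNA taken 2 weeks later. In another 3154 experiment they received 4OHT or ethanol, with the small-molecule inhibitor MRTX1133 at 3 nM or vehicle, and these libraries are labelled 48 hours. The labels do not say whether 4OHT was given together with MRTX1133 or before it, nor its dose there, so "at 48 hours" below names the experiment and not a known time since 4OHT. Trametinib, an inhibitor of the kinases MEK1 and MEK2, was given for 48 hours at 50 nM to 3311, at 10 nM to 1027B, and at 20 nM to the human lung adenocarcinoma lines H358 and H1651. The 1027B organoids were also given MRTX1133 at 20 nM for 48 hours. H1651 cells holding a lentiviral, doxycycline-inducible HNF4A construct were grown for 7 days with 1 µg/mL doxycycline or without it. Each of the 17 groups held 2 libraries from 1 culture, and the labels do not say whether these were separate cultures, so p-values measure the spread between these libraries only.

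In the mouse genome, 4 of the 10 genes hold the core of the C/EBP-ATF response element, the composite site that ATF4 binds with C/EBP partners, in the 300 bases from 250 before to 50 after the RefSeq start. The core was searched as TGATGNAA on both strands. It was present in 1304 of 32851 RefSeq promoter windows (3.97%), and in 4.51% of 27025 genes. The cyclic AMP response element TGACGTCA, which does not contain that core, was in 1.79% of windows and in none of the 10 genes. The stretches below (RefSeq, GRCm38.p6, 5′ to 3′ on the gene's strand) show where the matches lie, with the match in capitals. A match describes letters and not binding.
Asns, chr6:7693210-7693459, minus strand: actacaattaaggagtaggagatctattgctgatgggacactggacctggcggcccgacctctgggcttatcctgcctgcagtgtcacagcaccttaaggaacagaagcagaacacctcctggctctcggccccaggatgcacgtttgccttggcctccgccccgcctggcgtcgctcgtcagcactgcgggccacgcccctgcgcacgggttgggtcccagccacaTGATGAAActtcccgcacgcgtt
Chac1, chr2:119350992-119351241, plus strand: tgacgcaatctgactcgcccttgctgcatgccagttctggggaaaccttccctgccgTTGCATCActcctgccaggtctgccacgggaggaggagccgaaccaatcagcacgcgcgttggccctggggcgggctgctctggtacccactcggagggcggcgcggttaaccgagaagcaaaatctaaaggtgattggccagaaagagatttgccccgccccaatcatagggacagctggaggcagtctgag
Atf3, chr1:191183334-191183583, minus strand: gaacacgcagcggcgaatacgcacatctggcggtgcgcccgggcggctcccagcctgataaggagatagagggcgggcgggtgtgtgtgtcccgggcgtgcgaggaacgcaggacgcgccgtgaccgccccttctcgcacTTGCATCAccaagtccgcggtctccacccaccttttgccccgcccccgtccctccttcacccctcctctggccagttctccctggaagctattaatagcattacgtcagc
Trib3, chr2:152344028-152344057, minus strand: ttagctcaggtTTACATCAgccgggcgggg
The Asns match starts 23 bases before the start site, the Atf3 match 110 before, the Chac1 match 193 before, and the Trib3 match at base 15 after it, all counted from the RefSeq start. GENCODE M21 (GRCm38) places some starts elsewhere: its Asns and Atf3 genes extend over the match, and its Trib3 gene begins downstream of it. Under trametinib Asns and Trib3 passed the test in 3 of 4 cultures, Chac1 in 2 (3 with the replicate block in 1027B) and Atf3 in none, and Psat1, with no match, passed in 3.

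Library totals ran from 19692517 to 45284286 assigned reads. Levels are given as counts per 1000000 reads (CPM), scaled by trimmed-mean factors within each table, and tables were scaled separately. The 6 lung epithelial markers summed to 3772 to 11137 CPM over all libraries, but Epcam was at 0.993 to 3.81 CPM in H1651. Fibroblast markers summed to at most 1.69 CPM in the organoids and 26.2 CPM in 3311, where Col1a2 was at 0. They summed to 409 to 743 CPM in H1651, and in H358 to 41.2 to 348 CPM, where LUM, COL3A1 and COL1A1 rose with trametinib. Their part in the human results was not tested. In bulk RNA, fewer cells expressing a gene and less RNA per cell cannot be told apart.

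4OHT lowered Hnf4a itself in 3154. Ethanol libraries were at 221 and 230 CPM and 4OHT libraries at 49.4 and 50.4 CPM in the 48-hour experiment (log2 fold change -2.18 ± 0.13 SE, adjusted p = 0.000141, edgeR quasi-likelihood test with Benjamini-Hochberg adjustment, as for every adjusted p below). At 2 weeks Hnf4a went from 315 and 427 CPM to 53.5 and 68.0 CPM (-2.61 ± 0.21, adjusted p = 0.00643). No library here received 4OHT without the floxed allele, so loss of Hnf4a and 4OHT or Cre activity cannot be told apart.

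At 48 hours all 10 genes fell after 4OHT in vehicle-treated 3154 organoids, where 15.7% of 15458 tested genes fell. Their median log2 fold change was -2.33, against 0.01 for all genes. None of the 10 overlapped between groups, a separation downward seen in 32.5% of all genes. Atf4 moved with them, from 961 and 928 CPM to 270 and 239 CPM (-1.89 ± 0.14, adjusted p = 0.000177).

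Trib3, a pseudokinase that binds ATF4 and dampens its activity, changed most. It stood at 164 and 208 CPM in the ethanol libraries and at 19.1 and 14.0 CPM after 4OHT, which left 8.91% of the control mean (-3.49 ± 0.24, adjusted p = 0.000165). Ddit3, which encodes the stress factor CHOP, went from 57.7 and 45.1 CPM to 5.38 and 6.34 CPM (-3.13 ± 0.32, adjusted p = 0.000629). Both genes were several-fold lower in each 4OHT library than in either ethanol library. Of the other transcription factors, Atf3 fell from 138 and 117 CPM to 26.7 and 26.3 CPM (-2.27 ± 0.21, adjusted p = 0.000452). Atf5, which is known for the mitochondrial unfolded protein response, fell from 55.7 and 52.9 CPM to 17.5 and 13.7 CPM (-1.80 ± 0.18, adjusted p = 0.000615).

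The amino acid enzymes fell by unequal amounts. Asns, asparagine synthetase, went from 709 and 581 CPM to 128 and 117 CPM (-2.40 ± 0.16, adjusted p = 0.000141). Psat1, the transaminase of serine synthesis, went from 1190 and 748 CPM to 195 and 161 CPM (-2.44 ± 0.23, adjusted p = 0.000453). Phgdh, which makes the first committed step of the same pathway, went only from 281 and 349 CPM to 232 and 217 CPM (-0.49 ± 0.14, adjusted p = 0.0295). The ethanol libraries of Psat1 differed from each other more than those of the other enzymes, yet the lower of them was still well above both 4OHT libraries.

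Chac1, which degrades glutathione, fell to 15.2% of its ethanol mean (-2.71 ± 0.25, adjusted p = 0.00043). Adm2, a secreted peptide of the calcitonin family, fell from 101 and 103 CPM to 27.3 and 22.5 CPM (-2.03 ± 0.16, adjusted p = 0.000245). Sesn2, a leucine sensor that restrains mTORC1, changed less, from 76.0 CPM in each ethanol library to 43.0 and 33.8 CPM (-0.98 ± 0.16, adjusted p = 0.00357).

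**Figure D1:**
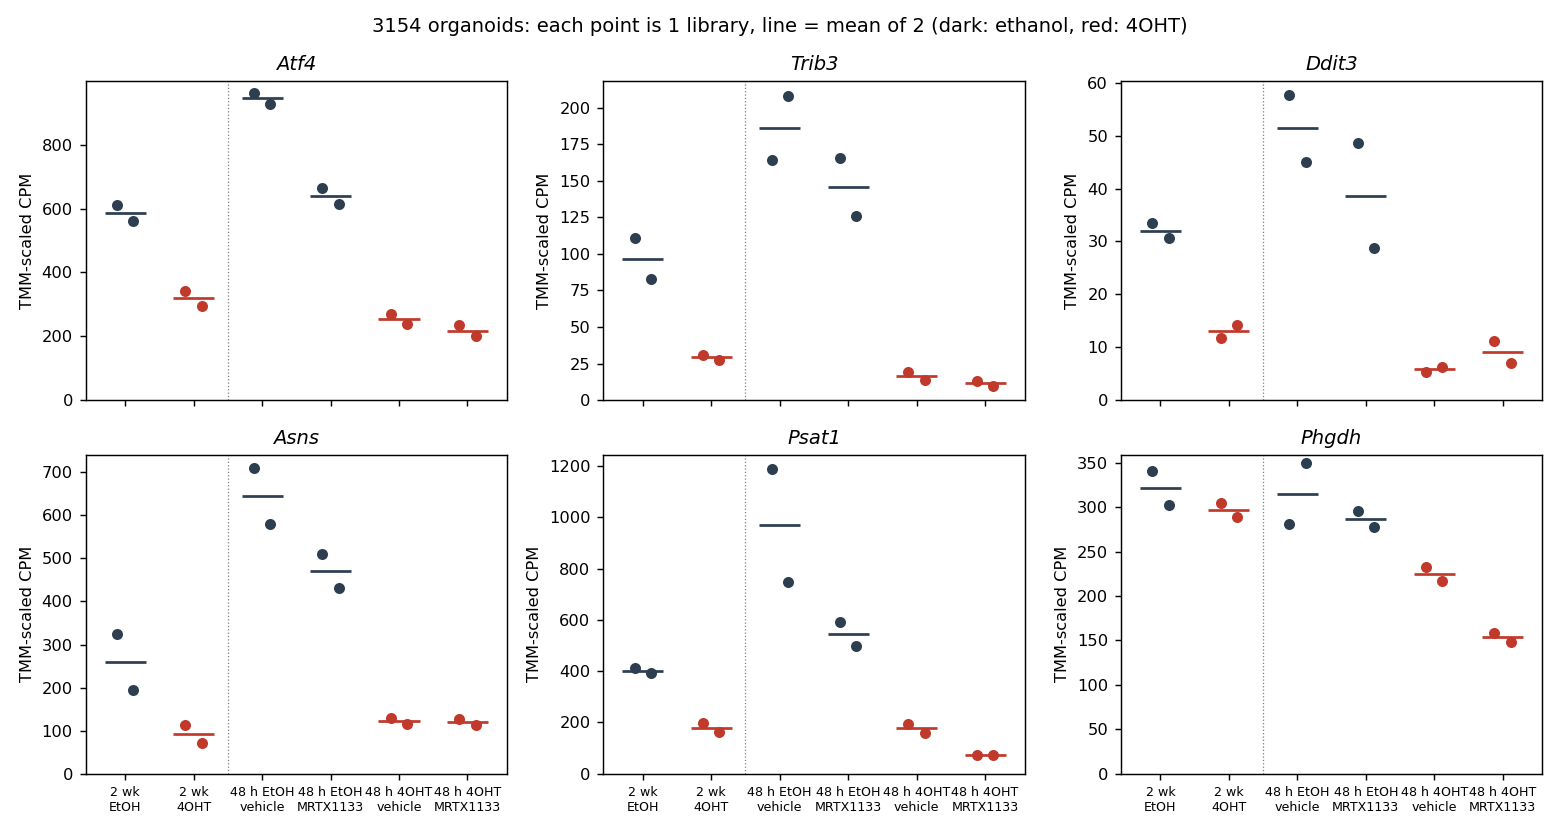
Levels of Atf4 and 5 of the 10 genes in the 12 libraries of 3154 organoids (y axis, CPM from 0; x axis, group), with 1 point per library and a line at the mean of 2. The 2-week and 48-hour tables, parted by a dotted line, were scaled separately. In each 48-hour comparison of 4OHT with ethanol the red and dark points do not overlap, and at 2 weeks Phgdh shows the smallest gap, 302 against 304 CPM for its nearest libraries, which overlap.

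At 2 weeks after 4OHT, 8 of the 10 genes were lower, where 5.78% of 14492 tested genes fell. Their median was -1.17, against 0.02 for all genes, and 9 of the 10 did not overlap between groups (30.3% of all genes separated downward). Trib3 went from 111 and 82.6 CPM to 31.1 and 27.6 CPM (-1.72 ± 0.19, adjusted p = 0.0108), and Chac1 from 69.0 and 35.9 CPM to 17.1 and 13.0 CPM (-1.80 ± 0.34, adjusted p = 0.032). Asns, at 325 and 195 CPM with ethanol and 112 and 71.0 CPM with 4OHT, fell by 1.51 (adjusted p = 0.0424). Ddit3, Atf5, Adm2, Psat1 and Atf3 fell by 1.15 to 1.30 on the log2 scale. Sesn2 missed the threshold, at 70.3 and 91.6 CPM against 29.2 and 47.8 CPM (-1.07 ± 0.27, adjusted p = 0.0637). Phgdh was at 340 and 302 CPM against 304 and 289 CPM (-0.11 ± 0.13, adjusted p = 0.581). Atf4 went from 612 and 562 CPM to 343 and 294 CPM (-0.88 ± 0.14, adjusted p = 0.02), a call lost without the first (0.068) or the second 4OHT library (0.1002). The count of 8 rests on both 4OHT libraries: without the first it was 2, and without the second 3. Of the cell type markers, Pecam1, of endothelium, fell from a mean of 5.48 to 2.12 CPM (-1.37 ± 0.28, adjusted p = 0.0394), and its part in the result was not tested.

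The change at 48 hours was set against that at 2 weeks in 1 fit over both tables. Trib3 differed (-1.76 ± 0.32 for the 48-hour minus the 2-week change, adjusted p = 0.031), where 0.398% of 15326 genes differed in that direction. Atf4 differed too (-1.01 ± 0.19, adjusted p = 0.0376), but in only 2 of 8 fits that each left out 1 library, those without the first 2-week ethanol library or the second 48-hour ethanol vehicle library (0.0393 to 0.197 over the 8). Ddit3 (-1.83 ± 0.39, adjusted p = 0.052) and Psat1 (-1.28 ± 0.29, adjusted p = 0.0607) missed the threshold. With only the 4 groups compared in the fit the count over the 10 genes was 0, and it was also 0 without either 2-week 4OHT library, the second 2-week ethanol library or either 48-hour vehicle library given 4OHT. The time since 4OHT in the 48-hour experiment is not given, so this sets 1 experiment against another, and time, exposure and experiment cannot be told apart.

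In 3154 organoids given ethanol, MRTX1133 at 3 nM took none of the 10 genes past the test (0.0323% of all genes fell), and DESeq2 called Psat1 alone. All 10 log2 fold changes were negative, with a median of -0.36 against 0.00 for all genes. An unadjusted p under 0.05 was reached by 4 of the 10 and by 1820 of 15458 genes, and 4 did not overlap between groups (15% of all genes separated downward). Atf4 was at 961 and 928 CPM with vehicle and 663 and 616 CPM with MRTX1133 (-0.56 ± 0.13, adjusted p = 0.148). Psat1 was at 1190 and 748 CPM with vehicle and 590 and 499 CPM with MRTX1133 (-0.83 ± 0.22, adjusted p = 0.204), and Trib3 at 164 and 208 CPM against 165 and 126 CPM (-0.36 ± 0.22, adjusted p = 0.598). Dusp6, a phosphatase that ERK signalling induces, was at 135 and 212 CPM against 134 and 193 CPM (-0.09 ± 0.23, adjusted p = 0.933).

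After 4OHT, MRTX1133 lowered 2 of the 10 genes, where 2.54% of all genes fell. Psat1 went from 195 and 161 CPM to 72.7 and 72.5 CPM (-1.29 ± 0.22, adjusted p = 0.0262). Adm2 went from 27.3 and 22.5 CPM to 9.34 and 10.9 CPM (-1.30 ± 0.16, adjusted p = 0.0141). Neither passed the test once any of the 4 libraries was left out. Asns, at 128 and 117 CPM against 128 and 113 CPM, and Atf5, at 17.5 and 13.7 CPM against 16.2 and 14.5 CPM, overlapped between the groups. Ddit3 lay the other way, at 5.38 and 6.34 CPM against 11.1 and 6.99 CPM (0.63 ± 0.32, adjusted p = 0.312), as did Atf3, at 26.7 and 26.3 CPM against 34.2 and 28.5 CPM (0.24 ± 0.20, adjusted p = 0.55). The other 8 log2 fold changes were negative. Atf4 was at a mean of 254 CPM with vehicle and 218 CPM with MRTX1133 (-0.22 ± 0.13, adjusted p = 0.387). Dusp6 was at 280 and 292 CPM against 186 and 191 CPM (-0.60 ± 0.23, adjusted p = 0.198), and 3 of 10 genes induced by ERK fell.

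Under MRTX1133, 4OHT again lowered all 10 genes, where 14.5% of all genes fell and 33.9% separated downward. The comparison shares no library with that under vehicle. The fibroblast marker Col1a1, near the floor of 3 counts per library with ethanol, was called higher in it, at a mean of 0.118 against 0.45 CPM (adjusted p = 0.0286, 0.0234 to 0.124 over the alternatives). Its part in the result was not tested. Trib3 went from 165 and 126 CPM to 13.0 and 9.97 CPM (-3.66 ± 0.25, adjusted p = 0.000157), Adm2 from 84.8 and 74.2 CPM to 9.34 and 10.9 CPM (-2.97 ± 0.16, adjusted p = 0.000113), and Phgdh from 296 and 277 CPM to 159 and 149 CPM (-0.90 ± 0.14, adjusted p = 0.00286). Atf4 fell from a mean of 639 to 218 CPM (-1.55 ± 0.13, adjusted p = 0.00032). The 4OHT effect under MRTX1133 was not shown to differ from that under vehicle for any of the 10 genes. No gene of 15458 passed that test in edgeR, and 1150 had an unadjusted p under 0.05, among them 3 of the 10. DESeq2 called 32 genes, none of them among the 10. The difference was widest for Ddit3 (1.04 ± 0.43, adjusted p = 0.642) and Adm2 (-0.94 ± 0.22, adjusted p = 0.541).

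Induction of HNF4A in H1651 was set against these losses. HNF4A rose from 47.1 and 35.9 CPM to 94.4 and 96.8 CPM (1.20 ± 0.13, adjusted p = 0.00979). ADM2 rose from 14.2 and 14.6 CPM to 27.6 and 24.5 CPM (0.86 ± 0.11, adjusted p = 0.0171). TRIB3 rose from 86.2 and 81.4 CPM to 115 CPM in both induced libraries (0.46 ± 0.07, adjusted p = 0.033). These were 2 of the 10 genes, where 1.04% of 17351 genes rose. The other 8 did not pass, with log2 fold changes from 0.22 to 0.66, and 9 of the 10 lay higher in both induced libraries than in both controls (21.4% of all genes did so). SESN2 overlapped, at 27.2 and 35.0 CPM against 32.1 and 40.5 CPM. ATF4 was at 313 and 296 CPM against 306 and 339 CPM (0.08 ± 0.08, adjusted p = 0.743). Without the second control library the count was 1. With the replicate block 9 of the 10 genes rose, where 9.28% of all genes did. Markers of other kinds moved in the same comparison. Of 5 fibroblast markers tested, COL3A1 fell from a mean of 432 to 241 CPM (-0.84 ± 0.07, adjusted p = 0.00387). PDGFRB (-1.67 ± 0.30, adjusted p = 0.0527) and LUM (-0.56 ± 0.14, adjusted p = 0.142) did not pass without the block. With the block PDGFRB, LUM and COL1A1 were called lower, as were, at low levels, TEK of endothelium and PTPRC of leukocytes. Of 6 lung epithelial markers, KRT8 (0.44 ± 0.07, adjusted p = 0.0451) and KRT18 (0.42 ± 0.07, adjusted p = 0.0493) rose. NKX2-1 lay the other way, at a mean of 35.1 against 27.4 CPM (-0.35 ± 0.18, adjusted p = 0.499). With the block NKX2-1 was called lower (adjusted p = 5.5e-05), and EPCAM (0.0025) and CDH1 (0.00031) were called higher. Their part in the result was not tested. No library received doxycycline without the construct, so HNF4A and doxycycline itself cannot be told apart.

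**Figure D2:**
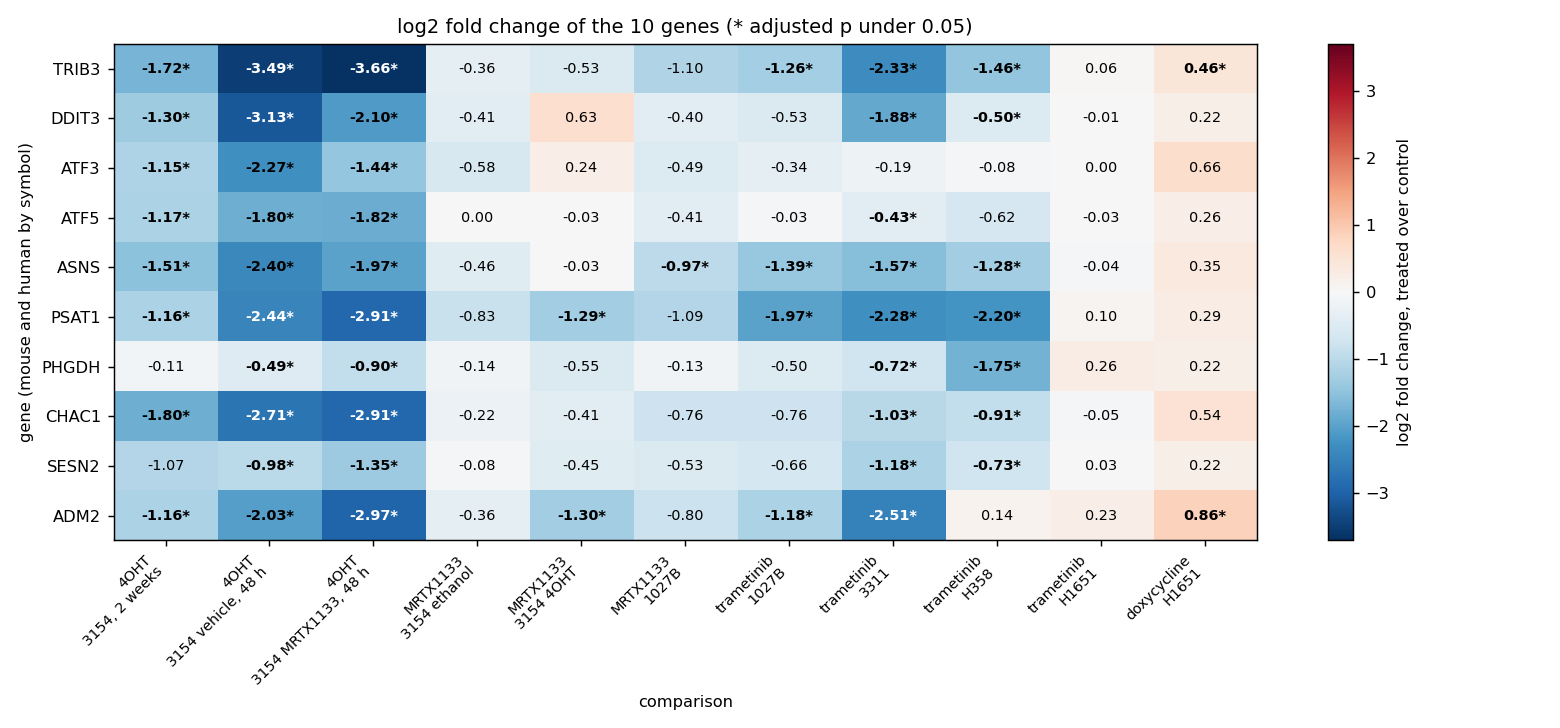
Log2 fold change of each of the 10 genes (rows) in 11 comparisons of treated with control libraries (columns), blue for lower and red for higher, with an asterisk where the adjusted p was under 0.05. Blue fills the 4OHT columns and the trametinib columns of 3311, 1027B and H358 apart from ADM2 in H358 (0.14), H1651 under trametinib runs from -0.05 to 0.26, and the doxycycline column is positive throughout, from 0.22 to 0.86.

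Trametinib lowered 9 of the 10 genes in the mouse line 3311, where 19.6% of 15224 genes fell. Their median was -1.38 against 0.01. Groups did not overlap for 9 genes, a downward separation seen in 36.6% of all genes. Drug action was visible in Dusp6, at 644 and 768 CPM with vehicle and 157 and 229 CPM with trametinib (-1.87 ± 0.22, adjusted p = 0.00133). Atf4 went from 599 and 527 CPM to 166 and 202 CPM (-1.62 ± 0.17, adjusted p = 0.000986).

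Adm2 changed most in 3311, from 17.6 and 19.0 CPM to 2.80 and 3.61 CPM (-2.51 ± 0.24, adjusted p = 0.000834). Trib3 went from 112 and 133 CPM to 17.9 and 31.0 CPM (-2.33 ± 0.26, adjusted p = 0.0012), and Psat1 from 399 and 361 CPM to 63.2 and 93.4 CPM (-2.28 ± 0.21, adjusted p = 0.000721). Each trametinib library of these genes lay far under both vehicle libraries. Ddit3 went from 146 and 94.7 CPM to 28.6 and 36.8 CPM (-1.88 ± 0.24, adjusted p = 0.00173) and Asns from 196 and 180 CPM to 54.5 and 72.0 CPM (-1.57 ± 0.17, adjusted p = 0.0011). Sesn2 (-1.18), Chac1 (-1.03), Phgdh (-0.72) and Atf5 (-0.43) passed with smaller changes. Atf3 did not, at 13.0 and 19.1 CPM against 14.3 and 13.8 CPM (-0.19 ± 0.24, adjusted p = 0.55). Of the cell type markers, Krt18 fell from a mean of 2503 to 928 CPM (-1.43 ± 0.19, adjusted p = 0.00205), as did, at low levels, Cd68 (-1.83) and Pdgfra (-0.84), while Col1a1 rose (1.62). Their part in the result was not tested.

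In 1027B organoids, given a lower dose of 10 nM, trametinib lowered 4 of the 10 genes, where 13.2% of 14555 genes fell. The median was -0.71 against -0.01. Psat1 went from 603 and 707 CPM to 133 and 201 CPM (-1.97 ± 0.26, adjusted p = 0.0034), Asns from 199 and 210 CPM to 72.4 and 82.9 CPM (-1.39 ± 0.15, adjusted p = 0.00165), Trib3 from 101 and 146 CPM to 43.0 and 60.2 CPM (-1.26 ± 0.26, adjusted p = 0.014), and Adm2 from 27.0 and 36.5 CPM to 11.0 and 17.0 CPM (-1.18 ± 0.29, adjusted p = 0.0251). For all of these the libraries numbered 2 were above those numbered 1 in both groups. Replicate numbers paired the 1027B libraries, and with replicate as a block 8 of the 10 genes fell, where 23% of all genes did. Ddit3 (adjusted p = 0.0192), Chac1 (0.00407), Sesn2 (0.0014) and Phgdh (0.00384) were those added, and Atf3 (0.0676) and Atf5 (0.852) were not called. Atf5 was at 51.1 and 61.5 CPM against 55.6 and 54.5 CPM. Without the first trametinib library 2 genes were called in the unblocked fit. Among the cell type markers, Krt19 fell (-0.58 ± 0.16, adjusted p = 0.0364), Cdh1 (0.56) and Nkx2-1 (0.43) rose, and Ptprc fell from a mean of 1.44 to 0.205 CPM (-2.78). With the block Krt18, Epcam and Cd68 were called lower too. The part of these markers in the result was not tested. Atf4 went from 362 and 433 CPM to 191 and 212 CPM (-0.98 ± 0.13, adjusted p = 0.0036).

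The same 1027B vehicle libraries served as controls for MRTX1133 at 20 nM. Asns alone passed, from 199 and 210 CPM to 91.1 and 118 CPM (-0.97 ± 0.14, adjusted p = 0.017), where 3.26% of genes fell, and 8 genes passed with the replicate block, where 12.7% did. Without either vehicle library or the first MRTX1133 library the unblocked count was 0. No cell type marker passed unblocked. With the block Krt19 was lower (adjusted p = 0.00344), and Cdh1 (0.00443) and Nkx2-1 (0.0161) were higher, and their part in the result was not tested. Psat1 was at 246 and 369 CPM with the drug (-1.09 ± 0.25, adjusted p = 0.0532, blocked 0.000214) and Trib3 at 48.0 and 67.5 CPM (-1.10 ± 0.25, adjusted p = 0.054, blocked 8.67e-05). Phgdh, at 407 and 310 CPM against 366 and 291 CPM, overlapped. Atf4 went from a mean of 398 to 259 CPM (-0.62 ± 0.13, adjusted p = 0.0419), a call lost whichever library was left out (log2 fold change from -0.74 to -0.46). Against trametinib directly, no gene passed without the block (0% of 14555, with 2357 at an unadjusted p under 0.05), while DESeq2 called 675 genes, of which Psat1 was the only 1 of the 10. With the block 3 were higher under MRTX1133, namely Psat1 (0.88 ± 0.25 unblocked, blocked adjusted p = 0.00183), Asns (0.0158) and Phgdh (0.0397). Atf5 was lower (blocked adjusted p = 0.0352), where 6.33% of all genes fell and 7.75% rose with the block. Among the cell type markers Epcam alone was called with the block, higher (0.34, blocked adjusted p = 0.0221), and its part in the result was not tested. Dusp6 was at 114 and 123 CPM under MRTX1133 and 30.4 and 47.5 CPM under trametinib, at these doses.

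In the mouse pair, the trametinib change of 3311 was larger than that of 1027B for Ddit3 (-1.36 ± 0.32, adjusted p = 0.0239) and Adm2 (-1.34 ± 0.39, adjusted p = 0.0497), where 7.17% of 14712 genes differed in that direction. Dose, culture form and cell line differ between them and cannot be told apart. Among the cell type markers, Krt18 differed in the same direction (-1.08 ± 0.21, adjusted p = 0.0111, blocked 0.00371). With the replicate block Nkx2-1 (-0.61, blocked adjusted p = 0.0126) and Cd68 (-1.23, 0.0366) did too, and Krt19 lay the other way (0.66, 0.0201). Their part in the result was not tested. With the replicate block 4 genes differed, where 13.6% of all genes did in that direction, Trib3 (0.00253) and Sesn2 (0.0312) being added. The unblocked count was 1 without the second 3311 vehicle library, and 0 without the first library of either 3311 group, either 1027B vehicle library or the second 1027B trametinib library.

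Trametinib lowered 7 of the 10 genes in H358, where 23.2% of 18972 genes fell, with a median of -0.82 against 0.02. For 7 the groups did not overlap (37.3% of all genes separated downward). PSAT1 went from 149 and 157 CPM to 26.6 and 40.2 CPM (-2.20 ± 0.18, adjusted p = 7.03e-05). PHGDH went from 181 and 165 CPM to 48.4 and 54.3 CPM (-1.75 ± 0.11, adjusted p = 2.43e-05). TRIB3 went from 84.5 and 70.9 CPM to 28.0 and 28.7 CPM (-1.46 ± 0.12, adjusted p = 7.76e-05). ASNS had few counts in the human libraries, at 4.48 and 4.06 CPM against 1.85 and 1.65 CPM (-1.28 ± 0.23, adjusted p = 0.00268). CHAC1 (-0.91), SESN2 (-0.73) and DDIT3 (-0.50) passed with smaller changes. ADM2 (0.14 ± 0.21, adjusted p = 0.615), ATF3 (-0.08 ± 0.23, adjusted p = 0.791) and ATF5 (-0.62 ± 0.27, adjusted p = 0.0868) did not. ATF4 itself fell by 0.43 (adjusted p = 0.0115, or 0.0662 without the first vehicle library). Markers of cell types moved in the same H358 comparison. Of 6 lung epithelial markers, KRT18 (-1.58), KRT8 (-1.04) and EPCAM (-0.68) fell, and CDH1 (1.05) and NKX2-1 (0.47) rose. Beside the 3 fibroblast markers named above, the endothelial marker CDH5 rose from a mean of 0.539 to 6.37 CPM (3.57 ± 0.34, adjusted p = 0.000135) and the leukocyte marker PTPRC from 0.182 to 0.66 CPM (1.87 ± 0.42, adjusted p = 0.00741). Their part in the result was not tested. HNF4A had 0 counts in all 4 H358 libraries, which allows up to 3 counts per library.

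In H1651 none of the 10 genes passed the test under the same dose of trametinib. Without a replicate block no gene of 18277 passed in edgeR (0%), and 597 had an unadjusted p under 0.05, none of them among the 10. DESeq2 called 47 genes, again none of the 10. Same-numbered libraries deviated together here (r = 0.623). With the replicate block 1881 genes passed, and PHGDH alone of the 10 was called, higher, where 4.9% of all genes rose. TRIB3 was at 57.5 and 66.7 CPM with vehicle and 57.0 and 72.2 CPM with trametinib (0.06 ± 0.15). PSAT1 was at 149 and 182 CPM against 150 and 205 CPM (0.10 ± 0.19), and PHGDH at 68.1 and 89.1 CPM against 74.6 and 114 CPM (0.26 ± 0.24). All 10 overlapped between groups, where 28.5% of all genes did not. Drug action was visible in DUSP6, which was at 49.8 and 51.8 CPM with vehicle and 5.27 and 7.46 CPM with trametinib, though its adjusted p was 0.149 in the fit without the block. ATF4 stood at 296 and 320 CPM against 278 and 335 CPM.

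The difference between the 2 human lines was tested in 1 fit. It passed for PSAT1 (2.28 ± 0.29 for H1651 minus H358, adjusted p = 0.00159), PHGDH (1.99 ± 0.28, adjusted p = 0.00245), TRIB3 (1.49 ± 0.21, adjusted p = 0.00227) and ASNS (1.21 ± 0.34, adjusted p = 0.0393). These were 4 of the 10, where 9.86% of 21188 genes differed in that direction. ATF4 (0.39 ± 0.17, adjusted p = 0.144) and SESN2 (0.73 ± 0.25, adjusted p = 0.0702) missed the threshold. With the replicate block 8 of the 10 genes differed, where 19.6% of all genes did in that direction. The lines differ in far more than HNF4A and in growth medium, which cannot be told apart from the line.

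**Figure D3:**
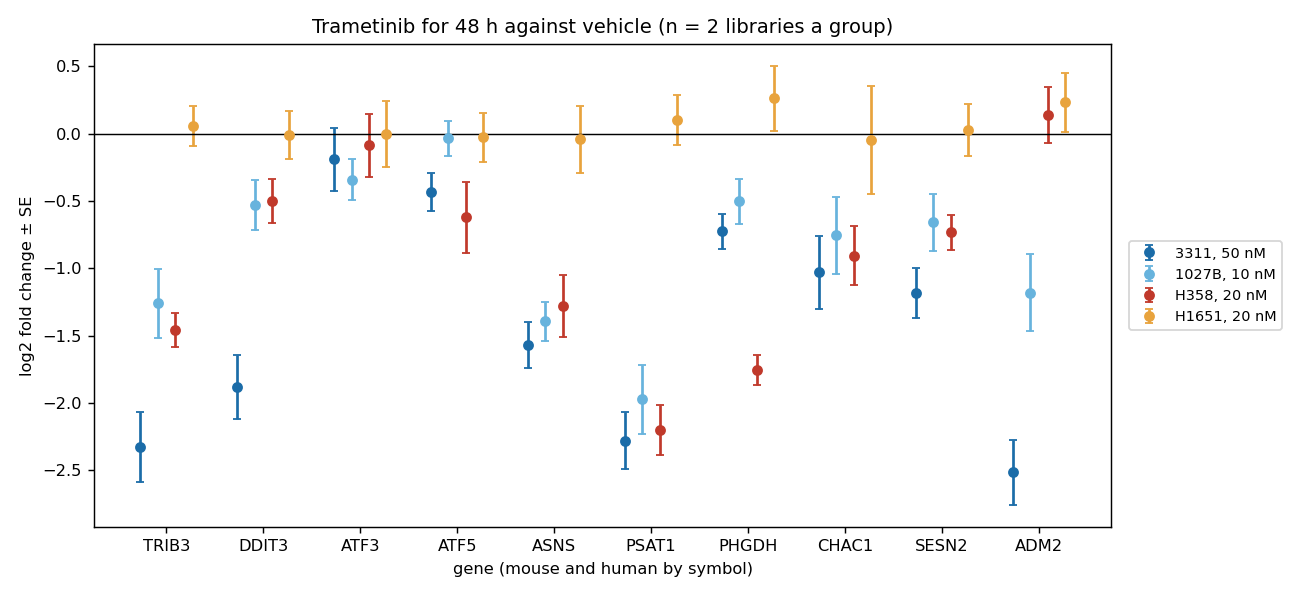
Log2 fold change with its standard error (y axis) for the 10 genes (x axis) after 48 hours of trametinib in 4 cultures, with dose by colour. The points of H1651 lie within 0.26 of 0, while those of 3311, 1027B and H358 lie at -1.26 or lower for Trib3, Asns and Psat1, and no culture lies under -0.34 for Atf3.

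Across all 34 libraries, with log2 CPM centred within each table, the 10 genes moved together to different degrees. Pearson r with the mean of the other 9 was 0.989 for Trib3, 0.964 for Asns, 0.947 for Chac1, 0.831 for Atf3 and 0.680 for Phgdh. The lowest pair was Atf3 with Phgdh (0.45) and the highest Asns with Trib3 (0.96). Atf4 had an r of 0.967 with the mean of the 10. Among 9565 genes tested in all tables, the 5 most like that mean were MTHFD2 (0.977), a mitochondrial folate enzyme, PYCR1 (0.973) of proline synthesis, the mitochondrial protease LONP1 (0.970), the methionyl-tRNA synthetase MARS1 (0.970) and EIF4EBP1 (0.968), a repressor of cap-dependent translation. These libraries share treatments and, within a table, sequencing, so the coefficients are descriptive. MARS1 (Mars) overlaps Ddit3 on the opposite strand in the mouse, where 4.73% of Ddit3 exon bases lie under opposite-strand exons. A further 6.13% are shared with same-strand exons, among them those of a second gene entry also named Ddit3, so some Ddit3 reads may have been split or left uncounted.

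The neighbouring steps of amino acid supply were followed by lists of their own. Of 11 other genes of serine, folate and proline synthesis, 9 fell and none rose after 4OHT at 48 hours in vehicle (median -1.99), 8 fell in 3311 (median -1.15), and 8 fell and 1 rose in H358 (median -0.95). Mthfd2 went from a mean of 193 to 37.6 CPM in 3154 (-2.36 ± 0.16, adjusted p = 0.000155), from 119 to 38.4 CPM in 3311 (-1.64 ± 0.19, adjusted p = 0.00124), and from 275 to 93.4 CPM in H358 (-1.56 ± 0.13, adjusted p = 5.95e-05). Psph, the last enzyme of serine synthesis, fell in the same 3 (-2.16, -1.15 and -1.40). Cth, which makes cysteine, fell in 3154 (-4.95 ± 0.31) and rose in H358 (0.90 ± 0.18, adjusted p = 0.00382). In 1027B trametinib lowered 6 of the 11, or 9 with the replicate block. In H1651 none passed under trametinib (median 0.04) or doxycycline (median 0.29) without the block.

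Of the amino acid transporters, 7 of 10 fell in 3311, 8 of 9 in H358 and 6 of 9 in 1027B under trametinib, and 6 fell and 1 rose of 10 after 4OHT at 48 hours. Slc7a11, the cystine importer, fell in 3311 (-3.21), in 1027B (-2.97) and in H358 (-2.11), where it went from a mean of 68.1 to 15.8 CPM (adjusted p = 1.55e-05). In H1651, where no gene passed without the replicate block, it was at a mean of 204 CPM with vehicle and 129 CPM with trametinib. Its groups did not overlap (-0.67 ± 0.13, unadjusted p = 0.00323 and adjusted p = 0.999 in edgeR without the block). It fell after 4OHT in 3154 (-1.11 ± 0.23, adjusted p = 0.00984). Of 18 tRNA synthetases, 14 fell after 4OHT at 48 hours, 12 in 3311, 15 in 1027B and 14 in H358, with medians of -0.83, -0.66, -0.49 and -0.43. The shares of all genes that fell are those given above, and 15.3% rose after 4OHT at 48 hours, 19.4% in 3311, 13.5% in 1027B (21.9% with the block) and 23.5% in H358.

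**Figure D4:**
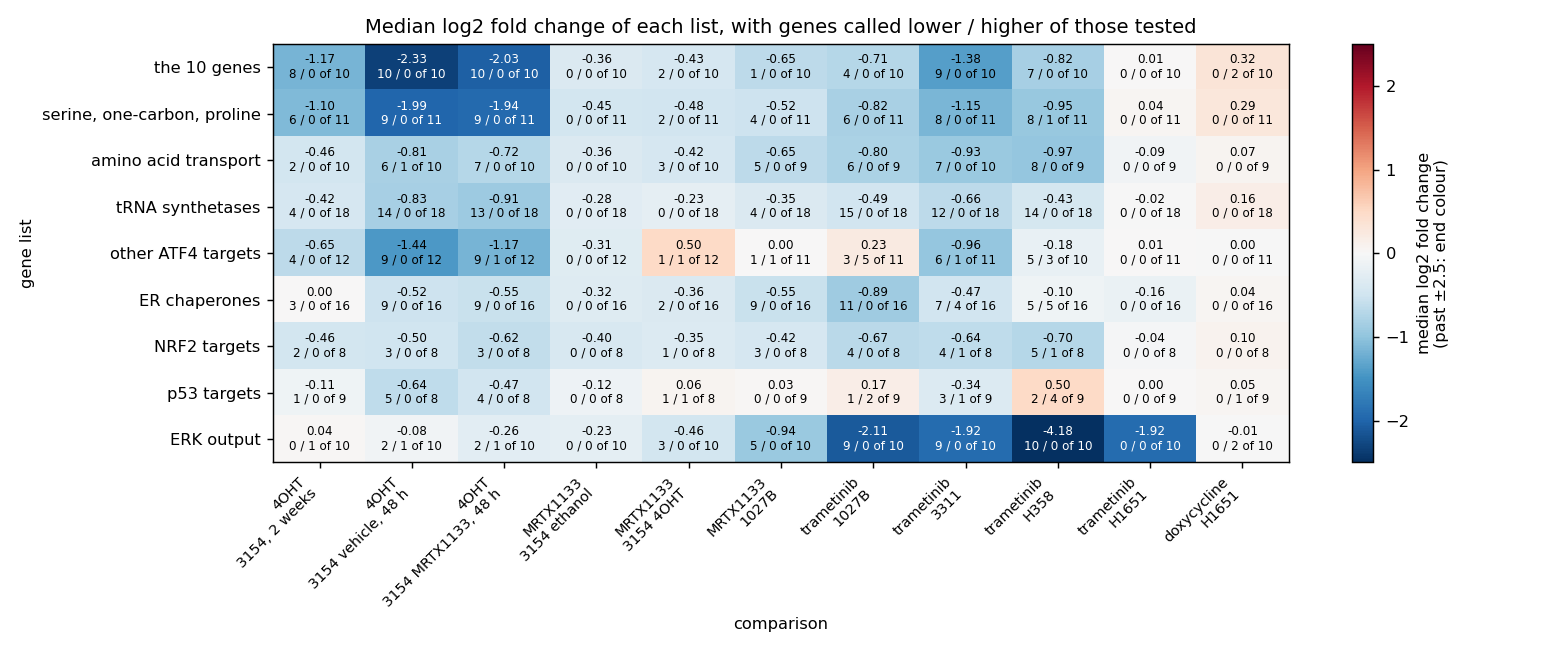
Median log2 fold change (upper number, and colour) of the 10 genes and 8 other gene lists (rows) in 11 comparisons (columns), over the number of genes called lower / higher of those tested. The amino acid rows are blue wherever the 10 genes are, H1651 under trametinib runs from -0.16 to 0.04 in every row except ERK output at -1.92, and p53 targets run from -0.64 to 0.50.

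Of 12 other genes that ATF4 is known to induce, 9 fell and none rose after 4OHT at 48 hours in vehicle (median -1.44). Of 11 tested in 3311, 6 fell and 1 rose, of 11 in 1027B 3 fell and 5 rose, and of 10 in H358 5 fell and 3 rose. Gdf15, a stress hormone, fell in 3154 at 48 hours (-3.54 ± 0.21), in 1027B (-2.24 ± 0.21) and in H358 (-2.87 ± 0.27), and in 3311 it went from a mean of 2.43 to 0.019 CPM, which is under 3 counts per library. Fgf21 was at 0 in both 3154 vehicle libraries given 4OHT, at least 21.0-fold lower than its ethanol mean of 2.61 CPM, counted from a floor of 3 counts per library. Under trametinib, Klhl24 rose in 1027B (1.53 ± 0.15, adjusted p = 0.00147) and in H358 (2.41 ± 0.15). Cebpb rose in 1027B (1.18 ± 0.15, adjusted p = 0.00337) and fell in 3311 (-1.22 ± 0.20, adjusted p = 0.00479). The chaperone list of the endoplasmic reticulum, which ATF6 and XBP1 drive, had 9 of 16 genes lower and none higher after 4OHT at 48 hours, both in vehicle and under MRTX1133 (medians -0.52 and -0.55), and 3 lower and none higher at 2 weeks (median 0.00). Under trametinib 11 fell in 1027B, 7 fell and 4 rose in 3311, and 5 went each way in H358. Hspa5, its main chaperone, fell in 1027B (-1.04 ± 0.12, adjusted p = 0.00225) and rose in H358 (0.35 ± 0.11, adjusted p = 0.0301).

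Of 13 regulators of the pathway itself, 6 fell and 1 rose after 4OHT at 48 hours in vehicle, where the genes of the 4 eIF2 kinases did not pass the test. Beside Atf4, Cebpg fell there (-1.02 ± 0.11, adjusted p = 0.000832), as did Ppp1r15a (-1.08 ± 0.16, adjusted p = 0.00244), the phosphatase subunit that reverses eIF2 alpha phosphorylation, while Impact, an inhibitor of the kinase GCN2, rose (1.02 ± 0.15, adjusted p = 0.00237). In 3311, 4 fell and 3 rose, in 1027B 4 fell and 3 rose (5 and 5 with the replicate block), and in H358 5 fell and 3 rose, PPP1R15A being higher in H358 (0.64 ± 0.13, adjusted p = 0.00396). Of all genes, 19.6% fell and 19.4% rose in 3311, 13.2% and 13.5% in 1027B, and 23.2% and 23.5% in H358, so nothing particular to the regulators is read from these trametinib counts.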

How the data were processed

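Poly(A) RNA of 34 libraries was sequenced. The 7 deposited tables hold unnormalised read counts for each gene. Per the submitters' processing notes, the tools included cutadapt 3.5, STAR 2.7.6a and featureCounts 1.6.3, and the builds named are mm10, mm39 and hg38. Which table used which build is not given in the sources used here. The library kit keeps strand per the labels, but the strand setting of the counting is not given in the sources used here. The columns of the 3311 table name treatment and replicate only, and were matched to that culture because the table is named for it.

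Counts were tested in R 4.3.3 with edgeR 4.0.16 (trimmed-mean factors, filterByExpr, glmQLFit and glmQLFTest), 1 fit per table with all its groups, and p-values were adjusted over all tested genes by Benjamini-Hochberg with a threshold of 0.05. The standard error is the absolute log2 fold change divided by the square root of F. Differences between cultures or times were tested in 1 fit over the 2 tables. Alternatives were DESeq2 1.42.0, scaling by upper quartiles or by RLE, no filter, a minimum of 10 counts, a replicate block, only the groups compared, a log2 limit of 1 and each library left out. The scripts were tested on simulated data. The members and lists were chosen with earlier results of these data known. Beyond the members, the text names up to 4 called genes per list and comparison with the largest changes, Atf4, Ppp1r15a, Psph, Slc7a11, Hspa5, Hnf4a and Dusp6, and the 5 genes most like the members. Cth, Cebpb, Cebpg, Mthfd2, Klhl24 and Impact were singled out after their values were seen where they fall outside that rule. Replicates differed by more than counting noise in all 17 groups (chi-square per degree of freedom of 5.65 to 83.1). Within 1027B, same-numbered libraries deviated together in every pair of groups (r of 0.243, 0.372 and 0.414), so the blocked value stands beside a 1027B result where it changes the call or moves a count by over 1.5 times. An allele that all the mouse cultures share is not reported here. Human genes were not checked for overlap with neighbours, and in the mouse Atf5 shares 4.11% of its exon bases with opposite-strand exons.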

Additional observations from a re-analysis of the deposited data

Results flagged for a closer look

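The effect of trametinib differed between H358 and H1651, by a test of the difference itself (H1651 minus H358, log2 scale). The difference was positive for 4 of the 10 genes, where 9.86% of all genes were called in that direction. The 4 were PSAT1 by 2.28, PHGDH by 1.99, TRIB3 by 1.49 and ASNS by 1.21. In H358 these genes fell by 1.28 to 2.20, and in H1651 their changes were between -0.04 and 0.26. ASNS rests on low counts in both lines. The effect also differed between the mouse cultures 3311 and 1027B, whose doses were 50 and 10 nM, for Ddit3 (-1.36, 3311 minus 1027B) and Adm2 (-1.34). Of all genes 7.17% differed in that direction. The effect of 4OHT in 3154 differed between the experiment labelled 48 hours and the 2-week experiment for Trib3 (-1.76, the former minus the latter), with the time since 4OHT not given in the former. In that direction 0.398% of all genes differed, and with only the groups compared none of the 10 did. The mouse and 4OHT differences also depended on single libraries, as given above. What these differences rest on was not tested.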

How the results depend on the processing

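No gene among the 10 changed direction past the threshold under any alternative run. Over all single-gene values, 1706 kept their side of the threshold, 73 lost it and 71 gained it. Counts of the 10 genes that moved over 1.5 times were as follows. With the replicate block, doxycycline gave 9 (where 9.28% of all genes rose), and trametinib 8 in 1027B and 1 in H1651 (PHGDH, 0.24 higher, where 4.9% of genes rose). MRTX1133 gave 8 in 1027B and 4 against trametinib, with the shares of all genes in 1027B given above. The differences of human, mouse and 4OHT effects gave 8 (where 19.6% of all genes were higher), 4 (where 13.6% were lower) and 5 (where 1.46% were lower). Outside 1027B the samples share only a number, with r of 0.427 in 3154 at 2 weeks, 0.318 for doxycycline, 0.126 in 3311, 0.318 in H358, 0.623 in H1651 under trametinib and -0.251 to 0.549 in 3154 at 48 hours. DESeq2 gave 1 for MRTX1133 in 3154 with ethanol, 3 for MRTX1133 in 1027B, 1 against trametinib and 4 for the difference of 4OHT effects. With only the groups compared, MRTX1133 after 4OHT gave 4 and the difference of 4OHT effects 0. RLE factors gave 1 for the mouse difference, upper-quartile factors 3 for the 4OHT difference, and no filter 3 for MRTX1133 in 1027B. With a limit of 1 on the log2 scale the counts were 0 for doxycycline and MRTX1133 in 1027B, and 4 in H358.

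With 1 library left out, the lone library left in a group being assumed to vary like the others, counts ran from 2 to 9 for 4OHT at 2 weeks, 9 to 10 and 10 to 10 at 48 hours under vehicle and MRTX1133, 0 to 1 for MRTX1133 with ethanol, 0 to 0 after 4OHT and for the interaction, 1 to 2 for doxycycline, 7 to 8 in 3311, 2 to 5 for trametinib and 0 to 1 for MRTX1133 in 1027B, 0 to 0 between them, 6 to 8 in H358, 0 to 0 in H1651, and 3 to 5, 0 to 2 and 0 to 3 for the human, mouse and 4OHT differences.

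Counts over all genes moved too. The replicate block took 4OHT at 2 weeks from 1421 to 4563, doxycycline from 247 to 3048, 1027B trametinib from 3880 to 6540, MRTX1133 from 913 to 3515, the drugs against each other from 0 to 2050, H1651 trametinib from 0 to 1881, and the human, mouse and 4OHT differences from 4087, 2103 and 210 to 8472, 3934 and 596. DESeq2 called 2337 at 2 weeks, 322 and 1308 for MRTX1133 in 3154 with ethanol and 4OHT (54 and 717 in edgeR), 441 for doxycycline, 1584 for MRTX1133 in 1027B and 747 for the 4OHT difference. With only the groups compared, 4OHT at 48 hours gave 3154 against 4795, MRTX1133 with ethanol 0 and after 4OHT 3932, the drugs against each other 1 and the 4OHT difference 11. Without the filter H1651 trametinib gave 2. With the log2 limit of 1, counts fell to 2518 and 2196 for 4OHT at 48 hours (4279 under MRTX1133), 323, 127, 3386 (5938 in 3311), 1768, 417, 4118 (8871 in H358) and 2395 for MRTX1133 after 4OHT, doxycycline, 3311, 1027B trametinib, 1027B MRTX1133, H358 and the human difference. With 1 library left out, the counts over all genes ran from 395 to 2790 for 4OHT at 2 weeks, 1668 to 5964 and 1745 to 2805 at 48 hours under vehicle and MRTX1133, 0 to 309 for MRTX1133 with ethanol and 0 to 23 after 4OHT, 232 to 412 for doxycycline, 3772 to 6298 in 3311, 1336 to 2754 for trametinib and 138 to 349 for MRTX1133 in 1027B, 0 to 2 between them, 6682 to 9265 in H358, 0 to 193 in H1651, and 2177 to 3667, 1041 to 2737 and 2 to 386 for the human, mouse and 4OHT differences. The share of all genes printed beside a count of the 10 moves with these. Low counts limit ASNS in the human lines most.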

Other observations

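Lists outside amino acid metabolism were followed as well. After 4OHT at 48 hours in vehicle 15.7% of all genes fell and 15.3% rose. Under trametinib 19.6% fell and 19.4% rose in 3311, and 23.2% and 23.5% in H358. In 1027B 13.2% fell and 13.5% rose, or 23% and 21.9% with the replicate block. Nothing particular to a list is read from counts near these shares. Of 10 genes induced by ERK, 2 fell and 1 rose after 4OHT at 48 hours in vehicle (median -0.08). Under trametinib 9 fell in 3311, 9 in 1027B (10 with the replicate block) and 10 in H358 (medians -1.92, -2.11 and -4.18). In H1651 the ERK list had a median of -1.92 with none called in edgeR without the replicate block. Of 8 NRF2 targets, which include Slc7a11, 3 fell after 4OHT at 48 hours, 4 fell and 1 rose in 3311, and 5 fell and 1 rose in H358. Hmox1, which degrades heme, fell in 3154 (-1.72 ± 0.13, adjusted p = 0.000225) and in 3311 (-1.25 ± 0.20, adjusted p = 0.00383), but rose in H358 (1.73 ± 0.17, adjusted p = 0.000164). Of 8 p53 targets tested in 3154, 5 fell at 48 hours in cultures whose p53frt allele Flp removes, Cdkn1a going from a mean of 587 to 105 CPM (-2.48 ± 0.17, adjusted p = 0.000147). In H358 4 of 9 rose and 2 fell, CDKN1A among those that rose (0.94 ± 0.12, adjusted p = 0.000514).

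Hnf4a itself was lower under trametinib in 1027B, at 446 and 471 CPM with vehicle and 254 and 200.4 CPM with the drug (-1.01 ± 0.15, adjusted p = 0.00535). In 3311 it was at 374 and 479 CPM against 263 and 390 CPM (-0.39 ± 0.22, adjusted p = 0.208, or 0.0299 without the second trametinib library). It was also lower under MRTX1133 in 1027B (-0.76 ± 0.15, adjusted p = 0.0375) and in 3154 after 4OHT (-0.86 ± 0.13, adjusted p = 0.0185). Both of these calls were lost whichever of their 4 libraries was left out (adjusted p from 0.0841 to 0.166 and from 0.0812 to 0.234).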
